A study of Mus musculus with 12 samples.

Results

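Open chromatin was examined around 5 genes that mark neutrophils: Csf3r, Mmp8, Retnlg, S100a8 and S100a9. A peak was assigned to one of them when that gene was the nearest of 21631 protein-coding genes (spans of GRCm38.p6, chromosomes 1 to 19 and X) and lay within 100 kb. In this way 10 peaks were found in the 4 deposited ATAC-seq peak lists, and overlapping peaks of different lists merged into 9 regions, out of 48003 merged regions in all. The cells were mouse aortic endothelial cells (labelled MAECs), and ATAC-seq maps open chromatin by the sites a transposase can cut. The 4 groups were WDM-WDO, CDM-WDO, WDM-CDO and CDM-CDO. The letters before M were read as the diet of the mothers and those before O as the diet of the offspring, CD or WD in the labels. The labels give WD again for 4 weeks to the offspring of both WDO groups, although the mothers of CDM-WDO were read as on CD. Strain, genotype, age, sex and the way the cells were isolated are not given in the labels. The peak names carry the tag 12w in both WDO lists and 08w in both CDO lists, so the diet of the offspring and this time cannot be told apart. Each group had 2 samples but 1 peak list, so no difference below carries a test, and the 5 genes were chosen with results of these lists known, so their presence is given as a description.

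Neutrophils are short-lived white blood cells that are made in the bone marrow and enter tissue at sites of injury. Csf3r encodes the receptor for granulocyte colony-stimulating factor, the main growth factor of the lineage. S100a8 and S100a9 encode the subunits of calprotectin, a calcium-binding protein that fills the cytosol of neutrophils and acts as an alarm signal when released. Mmp8 encodes neutrophil collagenase, an enzyme stored in granules, and Retnlg encodes a secreted protein of the resistin-like family found in mouse neutrophils. Endothelial cells line the vessel and are not the usual source of any of these transcripts. In cells measured in bulk, more cells of a type and more open chromatin per cell cannot be told apart.

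At 3 of the 5 genes a peak lay over the promoter window, which runs from 250 bases before to 50 bases after the start that RefSeq annotates. The sequences of these windows (RefSeq, GRCm38.p6, read in the direction of transcription, all on the plus strand) are shown because the peaks described below lie on them. Capitals mark every match, on either strand, to AGGAAG (the core of sites for ETS factors such as PU.1), TTGCNNAA (sites for C/EBP factors), TGANTCA (sites for AP-1) or TATAAA (the TATA box). The windows are chr4:126024409-126024708 for Csf3r, chr3:90668821-90669120 for S100a8 and chr9:7558179-7558478 for Mmp8.
Csf3r: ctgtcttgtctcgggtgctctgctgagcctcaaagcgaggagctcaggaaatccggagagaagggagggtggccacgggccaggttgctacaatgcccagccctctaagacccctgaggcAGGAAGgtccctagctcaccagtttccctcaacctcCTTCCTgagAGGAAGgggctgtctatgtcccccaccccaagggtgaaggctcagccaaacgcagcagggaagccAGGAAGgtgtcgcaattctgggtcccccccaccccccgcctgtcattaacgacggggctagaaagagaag
S100a8: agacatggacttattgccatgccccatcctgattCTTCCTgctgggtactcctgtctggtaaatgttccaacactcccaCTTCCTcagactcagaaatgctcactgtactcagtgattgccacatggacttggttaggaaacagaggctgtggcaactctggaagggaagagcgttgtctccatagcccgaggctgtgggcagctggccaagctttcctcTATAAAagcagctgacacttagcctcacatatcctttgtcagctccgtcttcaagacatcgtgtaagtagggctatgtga
Mmp8: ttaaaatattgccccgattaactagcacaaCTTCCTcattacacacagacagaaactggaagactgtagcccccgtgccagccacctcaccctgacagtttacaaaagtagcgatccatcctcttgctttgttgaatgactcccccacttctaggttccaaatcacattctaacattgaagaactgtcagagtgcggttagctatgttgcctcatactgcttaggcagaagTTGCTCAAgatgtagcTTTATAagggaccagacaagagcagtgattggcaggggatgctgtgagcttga
The Csf3r window held 4 matches to AGGAAG, the S100a8 window 2 and the Mmp8 window 1. S100a8 and Mmp8 each had 1 match to TATAAA, and Mmp8 had 1 to TTGCNNAA. Over 32619 promoter windows, AGGAAG was found in 35.2%, TTGCNNAA in 10.9%, TGANTCA in 7.85% and TATAAA in 13.7%. Among the 5 genes these motifs were found in 3, 3, 0 and 3 windows, and a match of letters is a description, not a binding site.

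Of the 10 assigned peaks, 6 were in WDM-WDO, 2 in CDM-WDO, 1 in WDM-CDO and 1 in CDM-CDO. This order depends on the length of the lists: with each limited to its 18962 strongest peaks, the counts were 2, 2, 0 and 1. At least 1 peak was assigned to 4 of the 5 genes in WDM-WDO, against 62.6% of all protein-coding genes in that list. In CDM-WDO this held for 2 of the 5 (54.9% of all genes), in WDM-CDO for 1 (66.2%) and in CDM-CDO for 1 (60.7%). A gene-end peak, one that reaches within 1 kb of the first or last base of the gene, was present at Csf3r, Mmp8, Retnlg and S100a8 in WDM-WDO (47.6% of all genes) and at S100a8 alone in CDM-WDO (40.2%). None of the 5 had a gene-end peak in WDM-CDO (51.2% of all genes) or CDM-CDO (48.1%). A peak lay over the promoter window of Csf3r, Mmp8 and S100a8 in WDM-WDO (46.5% of 17274 genes with such a window), of S100a8 in CDM-WDO (40%), and of none in WDM-CDO (50.2%) or CDM-CDO (47.2%). These members were picked from the same lists, so the shares are not evidence beyond the choice.

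**Figure D1:**
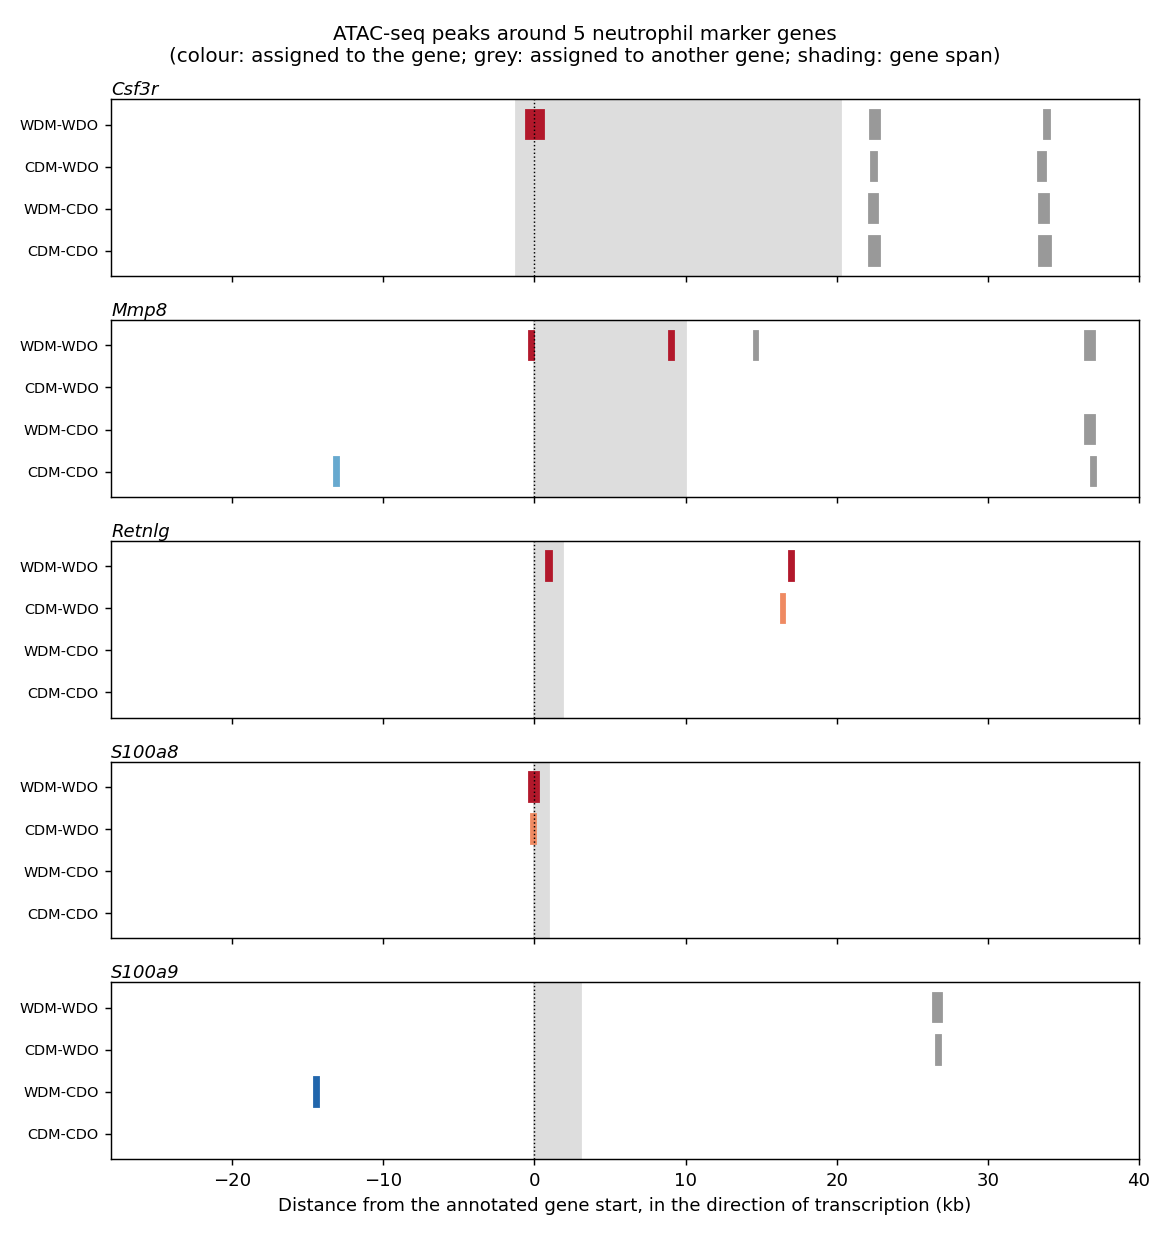
ATAC-seq peaks in the 4 peak lists (rows, WDM-WDO at the top) around each of the 5 genes, drawn to scale as distance in kb from the annotated start in the direction of transcription; coloured bars are peaks assigned to the gene, grey bars are peaks whose nearest gene is another one, and the shaded band is the gene span. Peaks over or inside the genes are seen in the WDO rows alone, while the grey peaks downstream of Csf3r are seen in all 4 rows.

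Csf3r, the receptor gene, had its one assigned peak in WDM-WDO. It spanned chr4:126024084-126025274, a width of 1191 bp against a median of 562 bp in that list, and covered the whole promoter window with its summit 237 bp before the start. The deposited fold enrichment over local background was 2.99 and the −log10 q was 6.98. The pileup, the number of reads stacked at the summit, was recovered from the deposited values as 40 (exact 95% Poisson interval 28.6 to 54.5), over a local background of 12.7 reads. That background was above the genome-wide one of 6.08 reads in WDM-WDO. By −log10 q the peak lay at the 46.9th percentile of its list, close to an average WDM-WDO peak. In CDM-WDO, WDM-CDO and CDM-CDO no peak was called over the gene. The next gene, Mrps15, which encodes a mitochondrial ribosomal protein, had a peak 1868, 1928, 1847 and 1854 bp beyond the end of Csf3r in WDM-WDO, CDM-WDO, WDM-CDO and CDM-CDO, with pileups of 57, 34, 76 and 58 reads. The neighbouring promoter was thus called in all 4 lists, and at the highest pileup in WDM-CDO, where Csf3r had no call.

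S100a8 had a peak over its promoter in both WDO lists and in neither CDO list. The WDM-WDO peak spanned chr3:90668728-90669351 (624 bp), with its summit 57 bp after the start, a pileup of 36 reads (25.2 to 49.8) over a background of 7.95, a fold enrichment of 4.13 and a −log10 q of 10.4. It was the highest-ranked peak of the 5 genes, at the 58.1st percentile of its list. The CDM-WDO peak spanned chr3:90668817-90669145 (329 bp), with its summit 144 bp before the start, 22 reads (13.8 to 33.3) over 6.75, a fold of 2.97 and a −log10 q of 3.43, at the 31.5th percentile. The narrower CDM-WDO peak lay wholly inside the WDM-WDO one, and the 2 summits were 201 bp apart. The intervals of the 2 pileups overlap, and the lists differ in depth and signal.

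S100a9, the partner gene on the same chromosome, had no gene-end peak in any list. Its one assigned peak was in WDM-CDO, at chr3:90709988-90710301, with its near edge 14267 bp upstream of the start. It was weak, with 19 reads (11.4 to 29.7) over 7.09, a fold of 2.47 and a −log10 q of 2.01, at the 5.64th percentile. The subunit genes therefore had no peak pattern in common: S100a8 was called in the WDO lists and the region upstream of S100a9 in WDM-CDO. Other S100 genes lie in the same cluster. A peak at S100a6, which encodes a further calcium-binding protein, was called in WDM-WDO (68 reads), WDM-CDO (52) and CDM-CDO (47) but not in CDM-WDO, and S100a4 had a gene-end peak in WDM-WDO alone (−log10 q of 7.58). Of 11 S100 genes in the cluster list, 7 had a gene-end peak in WDM-WDO, 5 in CDM-WDO, 6 in WDM-CDO and 7 in CDM-CDO, which is not the order seen at S100a8. These shares were 63.6%, 45.5%, 54.5% and 63.6%, against 47.6%, 40.2%, 51.2% and 48.1% of all genes. S100a5 and S100a6 had the same −log10 q wherever called, as had S100a1 and S100a13, so a single peak can count for 2 genes.

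Mmp8, the collagenase gene, had 2 peaks in WDM-WDO, none in CDM-WDO or WDM-CDO, and 1 in CDM-CDO. In WDM-WDO a peak at chr9:7558098-7558380 shared 202 bp with the promoter window, with its summit 105 bp before the start, 21 reads (13 to 32.1) over 8.17, a fold of 2.4 and a −log10 q of 2.03. The second WDM-WDO peak, chr9:7567313-7567641, lay inside the gene near its downstream end, with the summit 9180 bp after the start, also 21 reads (over 7.62), a fold of 2.55 and a −log10 q of 2.42. They ranked at the 5.12th and 10.9th percentile. The CDM-CDO peak lay elsewhere, at chr9:7545172-7545527, with its near edge 12902 bp upstream of the start and 12570 bp from the nearest WDM-WDO peak. It had 18 reads (10.7 to 28.4) over 4.84, a fold of 3.25 and a −log10 q of 3.54 (22.7th percentile). WDM-WDO and CDM-CDO thus had calls at different places around Mmp8. Of 9 other matrix metalloproteinase genes in the list for this cluster, none had a gene-end peak in any group, and their assigned peaks numbered 5 in WDM-WDO, 3 in CDM-WDO, 2 in WDM-CDO and 1 in CDM-CDO. The neighbouring gene Mmp27 had a peak inside it in WDM-WDO alone, 4445 bp from Mmp8 (23 reads). A further peak 12959 to 13342 bp from Mmp27 was called in WDM-WDO (27 reads), WDM-CDO (24) and CDM-CDO (25).

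Retnlg, the resistin-like gene, had 2 peaks in WDM-WDO and 1 in CDM-WDO. Inside the gene, WDM-WDO had a peak at chr16:48873376-48873771, whose summit was 909 bp after the start, with 18 reads (10.7 to 28.4) over 6.08, a fold of 2.68 and a −log10 q of 2.32. It did not reach the promoter window. Downstream of the gene, WDM-WDO had a peak at chr16:48889453-48889804, 14955 bp from the gene, with 17 reads (9.90 to 27.2) over 6.08 and a −log10 q of 1.87, and CDM-WDO had one at chr16:48888895-48889207, 14397 bp from the gene, with 17 reads (9.90 to 27.2) over 5.49 and a −log10 q of 2.17. These last 2 peaks did not overlap but were 245 bp apart. Counted by overlap they differ, although both WDO groups had a weak call in the same stretch. The other 3 genes of the resistin family in the lists, Retn, Retnla and Retnlb, had no assigned or gene-end peak in any list.

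**Figure D2:**
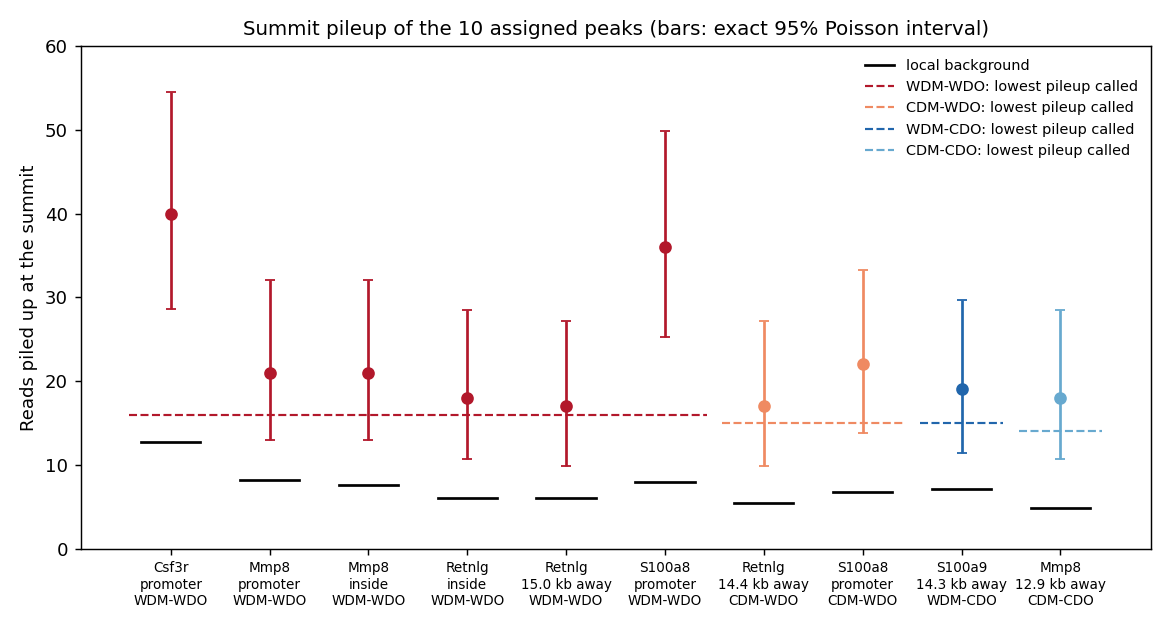
Reads piled up at the summit (vertical axis) of each of the 10 assigned peaks, with exact 95% Poisson intervals that cover counting error only; short black lines are the local background, dashed lines the lowest pileup called in each list, and "promoter" marks peaks that overlap the promoter window. The Csf3r and S100a8 peaks of WDM-WDO, at 40 and 36 reads, stand above the other 8, which lie between 17 and 22.

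By pileup and −log10 q, 2 promoter peaks stood apart from the rest, those of Csf3r and S100a8 in WDM-WDO. By fold enrichment the S100a8 peak of WDM-WDO was highest (4.13), while Csf3r (2.99) lay below the Mmp8 peak of CDM-CDO (3.25). In the weaker 50% of their own list stood 9 of the 10 peaks, and 7 stood in the weakest 25%. The lowest pileup that was called was 16 reads in WDM-WDO, 15 in CDM-WDO, 15 in WDM-CDO and 14 in CDM-CDO. The peaks of Retnlg, Mmp8 and S100a9 were 1 to 5 reads above that lowest pileup, and those of S100a8 and Csf3r 7 to 24 reads above it. That lowest pileup applies at the genome background, and a raised local background needs more reads, such as 25 over 11.5 in CDM-WDO. The margin of Csf3r, whose peak lay over 12.7 reads, was therefore smaller than this, as were those of other peaks over a raised background. With each list limited to its 18962 strongest peaks, 2 of the 6 WDM-WDO peaks stayed, those of S100a8 and Csf3r, while CDM-WDO kept both of its peaks, CDM-CDO kept its 1 and WDM-CDO had 0. With assignment within 10 kb, WDM-WDO had 5 peaks, CDM-WDO 1 and both CDO lists 0. No assigned peak lay close to the limit of 100 kb. The farthest assigned peak was 14955 bp away (17 reads, Retnlg, WDM-WDO), and the nearest peak past the limit was 128146 bp from Csf3r in CDM-WDO (24 reads, −log10 q of 2.93).

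The mothers' diets were first compared among offspring on WD, WDM-WDO against CDM-WDO. Of 7 regions at the 5 genes, 5 were in WDM-WDO only (43.1% of all 29107 regions were), 1 was in CDM-WDO only (16%), and the S100a8 promoter was in both. With lists of equal length, 1 region was in WDM-WDO only and 1 in CDM-WDO only. Gene-end peaks at Csf3r, Mmp8 and Retnlg were in WDM-WDO only (9.57% of all genes) and none in CDM-WDO only (2.14%). Among offspring kept on CD, WDM-CDO against CDM-CDO, there were 2 regions, the S100a9 one in WDM-CDO only (32.4% of 30133 regions) and the Mmp8 one in CDM-CDO only (13.8%). No gene-end peak of the 5 genes was one-sided in either direction there (4.98% and 1.91% of all genes).

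The offspring comparisons placed the gene-end peaks in the WDO lists. In WDM-WDO against WDM-CDO, 6 of 7 regions were in WDM-WDO only (25% of 34621 regions) and 1 in WDM-CDO only (29.7%). Gene-end peaks at Csf3r, Mmp8, Retnlg and S100a8 were in WDM-WDO only (2.75% of all genes) and none in WDM-CDO only (6.33%). In CDM-WDO against CDM-CDO, 2 of 3 regions, at S100a8 and Retnlg, were in CDM-WDO only (21.5% of 26055 regions) and the Mmp8 one in CDM-CDO only (36.4%). The S100a8 gene-end peak was in CDM-WDO only (2.01% of all genes), and none was in CDM-CDO only (9.96%). Each list enters 2 of these 4 comparisons, so they do not count as separate observations. Over all 41492 regions within 100 kb of a gene, 17.8% were in WDM-WDO alone, as were 5 of the 9 here, 1.52% were in the 2 WDO lists alone, as was the S100a8 promoter, and 24.6% were in all 4 lists, as was none of the 9.

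How far a missing call can be read depends on the depth and the signal of each list. At 3453 strong regions present once in every list (−log10 q of at least 20 in each), the reads above background in CDM-WDO were a median 0.699 times those in WDM-WDO. The ratio was 1.26 in WDM-CDO and 0.839 in CDM-CDO, again relative to WDM-WDO. The genome backgrounds were 6.08 reads in WDM-WDO, 5.49 in CDM-WDO, 5.59 in WDM-CDO and 4.84 in CDM-CDO. They had another order than the ratios, which therefore reflect signal over background and not depth alone. Each WDM-WDO peak was carried over to the other lists with these ratios, with its local background raised over the genome background as in WDM-WDO, and set beside the reads that a call needs over such a background. Equal openness at the S100a8 promoter would give 26.8 reads in CDM-WDO, where 22 were found and 18 needed. In WDM-CDO it would give 42.8 reads (18 needed) and in CDM-CDO 29.9 (17 needed), and no peak was called in either. At the lower end of the counting interval these values were 29.1 and 20.8, above the calling level in both CDO lists. That interval covers the WDM-WDO pileup only and leaves out the sampling of reads in the list without a call. The genes were also chosen with these lists known, so the pileups carried over may run high. Whether the S100a8 promoter was less open in the CDO lists was not tested. For the Csf3r promoter the values were 30.5 reads in CDM-WDO (25 needed), 46.2 in WDM-CDO (25 needed) and 33.0 in CDM-CDO (23 needed). At the lower end of its interval they were 22.6, 31.8 and 23.4, below the calling level in CDM-WDO and barely above it in CDM-CDO. The missing Csf3r calls in CDM-WDO and CDM-CDO were thus not clear of counting error. For the 2 Mmp8 and 2 Retnlg peaks equal openness would give 13.1 to 16.3 reads in CDM-WDO, below the 15 to 19 needed. A difference from CDM-WDO was therefore not detectable there. In CDM-CDO these 4 peaks came out at most 1.30 reads above the calling level, and in WDM-CDO 4.40 to 6.93 reads above it. At the lower end of the counting interval all 4 were below the calling level in both CDO lists, with 10.4 to 13.8 reads in WDM-CDO (15 to 18 needed), so these missing calls too were within counting error. The S100a9 peak of WDM-CDO, carried over in the same way, would fall below the calling level in each of the other 3 lists. The CDM-CDO peak upstream of Mmp8 would give 21.8 reads in WDM-WDO (16 needed), 16.5 in CDM-WDO (15 needed) and 25.3 in WDM-CDO (15 needed). The CDM-WDO peak downstream of Retnlg would give 22.6 reads in WDM-WDO (16 needed), 26.4 in WDM-CDO (15 needed) and 18.7 in CDM-CDO (14 needed). Both would thus exceed the calling level in every other list, WDM-WDO included, where no overlapping peak was called, though at the lower end of their intervals both fell below it.

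**Figure D3:**
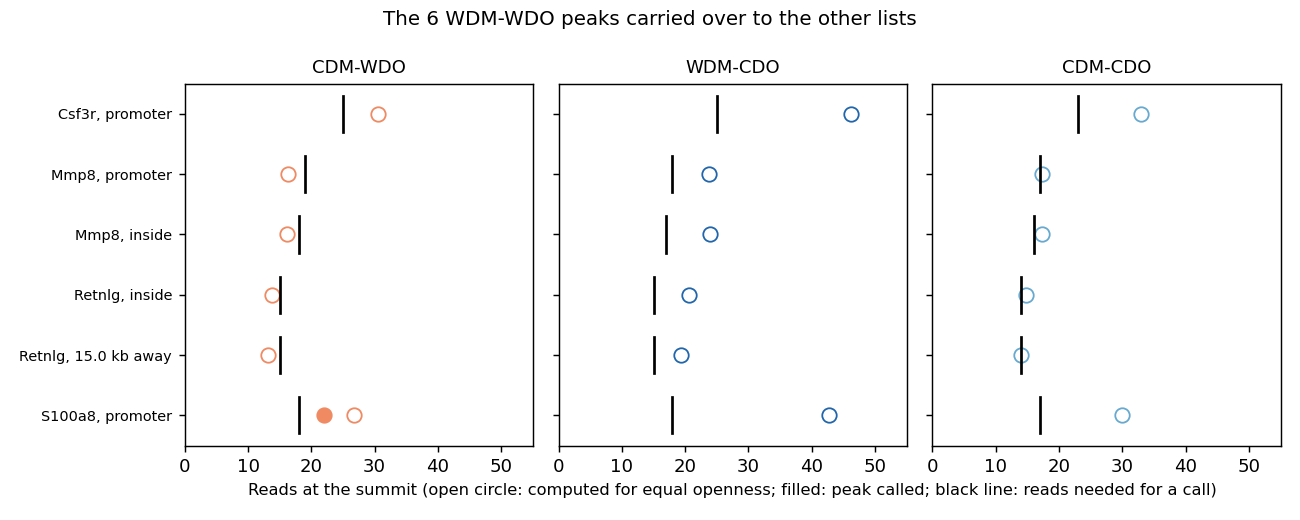
For each of the 6 WDM-WDO peaks (rows), open circles give the reads that equal openness would produce in the other 3 lists (panels, reads at the summit on the horizontal axis), the filled circle gives the called pileup, and black lines mark the reads needed for a call. Csf3r and S100a8 lie right of the line in all 3 panels, and the 4 Mmp8 and Retnlg peaks lie left of it in CDM-WDO.

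A wider set of 58 genes in 6 lists held neutrophil genes, ligands that recruit neutrophils, and receptors and partners of S100A8 and S100A9. It had 25 genes with a gene-end peak in WDM-WDO, 15 in CDM-WDO, 18 in WDM-CDO and 16 among the CDM-CDO peaks (43.1%, 25.9%, 31.0% and 27.6%). These shares lay below those of all genes, which were 47.6%, 40.2%, 51.2% and 48.1% in the same order. At least 1 peak was assigned to 37 of the 58 in WDM-WDO, 27 in CDM-WDO, 36 in WDM-CDO and 25 in CDM-CDO. By this count the shares were 63.8%, 46.6%, 62.1% and 43.1%, against 62.6%, 54.9%, 66.2% and 60.7% of all genes. WDM-WDO and WDM-CDO were thus close by assigned peaks. Relative to CDM-WDO, 10 of the genes had a gene-end peak in WDM-WDO only (17.2%, against 9.57% of all genes), and none was in CDM-WDO only. Relative to WDM-CDO, 7 were in WDM-WDO only (12.1%, against 2.75%) and none in WDM-CDO only. Among offspring kept on CD, Cxcl3 and Mmp25 had one in WDM-CDO only (3.45%, against 4.98%) and none was in CDM-CDO only. CDM-WDO against CDM-CDO gave Spi1 in CDM-WDO only (1.72%, against 2.01% of all genes) and Cebpb and Lyz2 in CDM-CDO only (3.45%, against 9.96%).

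Receptor genes made up 5 of these 10. Of 16 receptor genes, 7 had a gene-end peak in WDM-WDO and 2 in each of CDM-WDO, WDM-CDO and CDM-CDO. The WDM-WDO share of 43.8% was near that of all genes (47.6%), and the 12.5% of the other lists was below the 40.2% to 51.2% of all genes. The 5 found in WDM-WDO alone were C5ar1, the receptor gene for complement fragment C5a (−log10 q of 8.86), Fpr2, a receptor gene for formyl peptides (6.98), Clec4d, a C-type lectin gene (5.61), Ltb4r1, the leukotriene B4 receptor gene (2.99), and Fcgr4, an antibody receptor gene (2.56). The 2 found in every list were Cxcr4, the receptor gene that holds neutrophils in the marrow, and Itgb2, the beta chain gene of the leukocyte integrins. Itgb2 had a −log10 q of 37.9 in WDM-WDO, 7.76 in CDM-WDO, 11.6 in WDM-CDO and 10.6 in CDM-CDO. Its partner chain gene Itgam, counted with the granule genes, had a gene-end peak in WDM-WDO alone (3.42).

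Granule genes were mostly without gene-end peaks. Of 8 genes for primary granule proteins, 1 had a gene-end peak, in all 4 lists: Ctsc, a protease gene that many cell types use. That share of 12.5% lay below the 40.2% to 51.2% of all genes. Elane, Prtn3 and Ctsg, the serine protease genes of these granules, had no assigned or gene-end peak in any list. Of 12 genes for secondary and tertiary granule proteins, 3 had a gene-end peak in WDM-WDO (Itgam, Lyz2 and Mmp25), none in CDM-WDO, 2 in WDM-CDO and 1 in CDM-CDO. These shares were 25%, 0%, 16.7% and 8.33%, each below that of all genes in the same list. Camp, Ngp and Lcn2, which encode antimicrobial proteins of these granules, had no assigned or gene-end peak in any list. Granule genes with assigned peaks in 1 list only were Ltf (WDM-WDO), Mpo and Mmp9 (WDM-CDO) and Bpi (CDM-CDO). In all, 15 of the 58 genes had no assigned or gene-end peak in any list, among them the chemokine receptor gene Cxcr2 and the surface antigen gene Cd177. The share of all genes without a peak in any list was not counted.

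Transcription factor and ligand genes had more even counts of gene-end peaks, but not of assigned peaks. Of 8 granulocyte transcription factor genes, 7 had a gene-end peak in WDM-WDO and 6 in each other list (87.5% and 75%, above the shares of all genes). Their assigned peaks numbered 35 in WDM-WDO, 17 in CDM-WDO, 26 in WDM-CDO and 23 in CDM-CDO. Spi1, which encodes PU.1, had one in WDM-WDO (−log10 q of 12.6) and CDM-WDO (4.38) and in neither CDO list, the same lists as S100a8. Cebpa, Cebpd, Gfi1 and Runx1 had one in all 4 lists. Gfi1 went the other way from Spi1, with −log10 q of 8.02 in WDM-WDO and 4.20 in CDM-WDO against 66.6 in WDM-CDO and 32.6 in CDM-CDO. Cebpa and Cebpd were also highest in WDM-CDO (60.1 and 52.1, against 57.6 and 35.9 in WDM-WDO), and Runx1 was highest in WDM-WDO (34.8). The −log10 q values of these genes were not adjusted for the differences in signal between the lists. Cebpe, which encodes a C/EBP factor of late granulocytes, had no gene-end peak. Of 8 genes for ligands that recruit neutrophils, 3 had one in WDM-WDO, 2 in CDM-WDO, 3 in WDM-CDO and 2 in CDM-CDO. These shares of 25% to 37.5% lay below those of all genes, and the assigned peaks numbered 16, 9, 12 and 5 in the same order. The chemokine genes Cxcl1 and Cxcl2 had one in all 4 lists. Csf3, the ligand gene of the Csf3r product, had no assigned peak. Tlr4 and Ly96, which encode the receptor complex through which calprotectin is known to signal, had gene-end peaks in all 4 lists, and Ager, another receptor gene, had none.

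**Figure D4:**
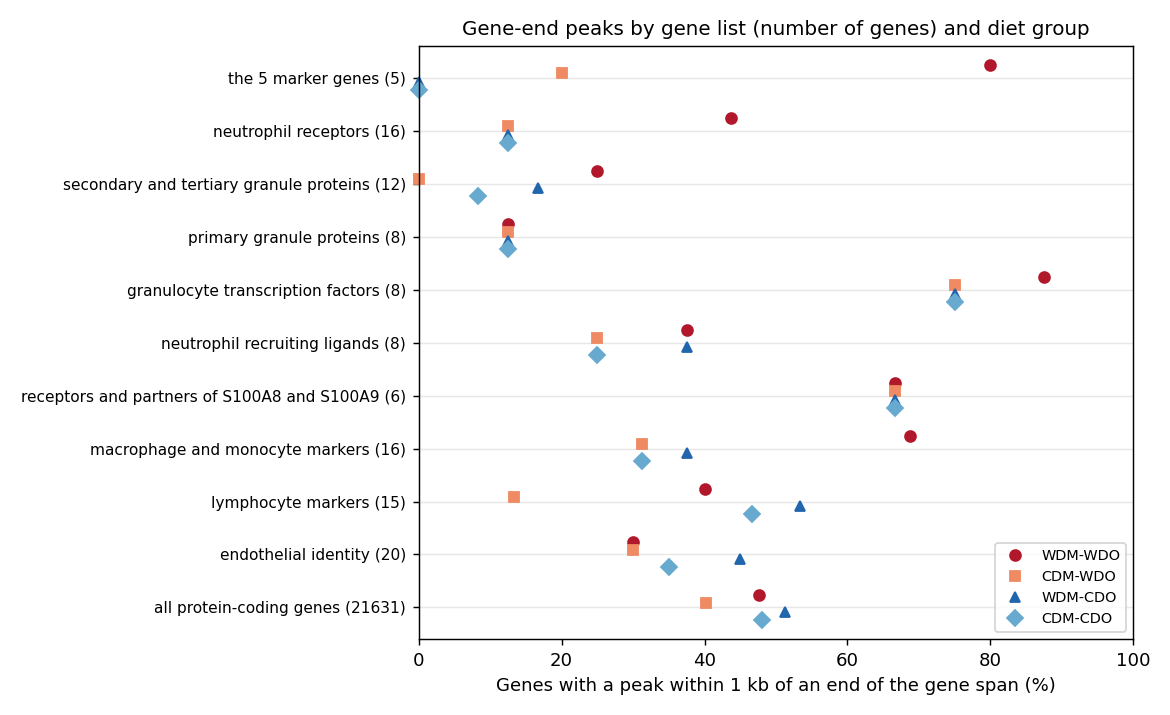
Share of genes with a peak within 1 kb of an end of the gene span (horizontal axis, %) in each gene list, one symbol per diet group, with the number of genes in parentheses and all 21631 protein-coding genes in the bottom row. The 5 marker genes reach 80% in WDM-WDO against 20% in CDM-WDO, while receptors reach 43.8% in WDM-WDO against 12.5% in the other 3 lists.

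Markers of other white blood cells differed alongside the neutrophil genes in part. Of 16 macrophage and monocyte markers, 11 had a gene-end peak in WDM-WDO, 5 in CDM-WDO, 6 in WDM-CDO and 5 in CDM-CDO. These shares were 68.8%, 31.2%, 37.5% and 31.2%, against 47.6%, 40.2%, 51.2% and 48.1% of all genes, so the WDM-WDO share alone was above that of all genes. Their assigned peaks numbered 31, 14, 16 and 14. Relative to CDM-WDO, 6 of these markers had a gene-end peak in WDM-WDO only (37.5%, against 9.57% of all genes). Relative to WDM-CDO, 5 did (31.2%, against 2.75%), and none went the other way in either comparison. Both shares were above those of the 58 genes (17.2% and 12.1%), so the excess in WDM-WDO was not particular to neutrophil genes. The lymphocyte markers had another order of gene-end peaks, with 6, 2, 8 and 7 of 15 in WDM-WDO, CDM-WDO, WDM-CDO and CDM-CDO (40%, 13.3%, 53.3% and 46.7%, against the same shares of all genes). Endothelial identity genes, which mark the labelled cell type, had an assigned peak at 15, 16, 18 and 16 of 20 in the same lists. These shares of 75%, 80%, 90% and 80% lay above those of all genes (62.6%, 54.9%, 66.2% and 60.7%). A gene-end peak was present at 6, 6, 9 and 7 of the 20, a share below that of all genes in each list. Of these 20, Robo4 and Sox18 had no peak in any list. Several neutrophil genes are also used by monocytes, S100a8, S100a9, Spi1 and Itgam among them. The part of macrophages or monocytes in the peaks of the 5 genes was not tested.

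Genes with the most similar pattern were ranked by the cosine of the summed fold enrichment over the 4 lists, among 5594 genes with at least 6 assigned peaks. The closest were 5730409E04Rik (0.996), Dusp22 (0.992), Spi1 (0.988), Tmem266 (0.988) and Lilrb4a (0.987). The ranking used the pattern alone and not the cell type of a gene. In WDM-WDO, CDM-WDO, WDM-CDO and CDM-CDO, Dusp22 had 7, 2, 2 and 1 assigned peaks. 5730409E04Rik and Tmem266 each had 4, 1, 1 and 1 in the same order. Spi1 had 3 assigned peaks in WDM-WDO and 1 in each other list. Lilrb4a, which encodes an inhibitory receptor of myeloid cells, had 6, 3, 1 and 1 in WDM-WDO, CDM-WDO, WDM-CDO and CDM-CDO.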

How the data were processed

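ATAC-seq was deposited as 4 narrowPeak lists, 1 for each diet group of 2 samples, with no header and no list per sample. H3K27ac was not analysed here. Among the tools in the submitters' processing notes are Bowtie2 2.4.5 (alignment) and MACS2 2.2.9.1 (peak calling), on the build GRCm38 (mm10). Settings, pooling of samples and any shift of read ends for the transposase are not given in the sources used here.

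Per peak, the authors deposited a ratio (the fold over local background), a −log10 p, a −log10 q and a display score, which is not used in the text. Ranks were taken within a list. The lowest −log10 q was 1.30 to 1.31. The lists held 26275 peaks (WDM-WDO), 18962 (CDM-WDO), 28319 (WDM-CDO) and 22178 (CDM-CDO) without the 8, 3, 5 and 4 of chromosome Y, and their median pileups were 39, 31, 38 and 36 reads.

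Summit pileups were recovered as the whole number that matches fold and −log10 p under a Poisson background with 1 read added to both sides of the fold. All peaks matched within a relative tolerance of 0.0001, and with the tail begun 1 read lower at most 1.56% did. The recovery was tested on simulated data. Read totals were not used here, so the scale between lists rests on these pileups and does not separate depth from signal. Intervals cover counting error only, since reads without molecular identifiers are not independent molecules.

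An overlap of 1 bp or more counted as shared. Each of the 5 genes was named with every assigned peak, and from each other list at most 4 genes with the strongest gene-end peak. Clec4d, Ltb4r1, Fcgr4, Spi1, Cebpb, S100a4, S100a5, S100a6, Mmp27 and Mrps15 were named after their values were seen. The same holds for Ltf, Mpo, Mmp9, Bpi and the genes without any peak. The members and lists were chosen with earlier results of these data known. Of 13 gene lists, 1 gene (Trbc2) was not matched. Python 3.11.15, pandas 2.3.3, numpy 2.4.6, scipy 1.17.1 and matplotlib 3.10.9 were used.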

Additional observations from a re-analysis of the deposited data

Results flagged for a closer look

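Mmp8 was singled out because the counts of its assigned peaks differed in opposite directions under the same diet contrast. For the mothers' diet, WDM minus CDM was 2 peaks in the WDO groups and -1 in the CDO groups, a difference of 3. For the offspring's diet, WDO minus CDO was 2 in the WDM groups and -1 in the CDM groups, again a difference of 3, since the same 4 counts enter. Each group had 1 list, so this difference was not tested. The peaks of WDM-WDO and CDM-CDO lay 12570 bp or more apart.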

How the results depend on the processing

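No paired analysis was possible because each group had 1 peak list and no test was made. With a −log10 q of at least 2, all 24 counts stayed within 1.5 times those reported, and 6 were lower. With an overlap of 50% of both peaks, all 8 counts of one-sided regions were as reported. With assignment within 10 kb, the upstream and downstream peaks dropped out: CDM-WDO had 1 peak at 1 gene, WDM-CDO and CDM-CDO had 0, the regions in CDM-WDO only relative to CDM-CDO numbered 1, and those in WDM-CDO only (against CDM-CDO or WDM-WDO), in CDM-CDO only and in CDM-WDO only (against WDM-WDO) all numbered 0. With each list limited to its 18962 strongest peaks, WDM-WDO kept 2 peaks at 2 genes, both gene-end peaks, CDM-WDO kept 2 at 2 genes, CDM-CDO kept 1, and WDM-CDO had 0 peaks, hence 0 regions in WDM-CDO only in either comparison. Relative to CDM-WDO, 1 region was then in WDM-WDO only, against 1 in CDM-WDO only, and relative to WDM-CDO 2 were in WDM-WDO only. With a gene-end window of 2 kb, gene-end peaks were counted at 2 genes in CDM-WDO, 1 in WDM-CDO and 1 in CDM-CDO, because the Mrps15 peak then also counts for Csf3r. The counts rest on 10 peaks, 8 of them with 17 to 22 reads at the summit.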
